A study of Mus musculus with 18 samples.

Results

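The mRNA levels of the enzymes that join glutathione, glucuronic acid or sulfate to foreign and endogenous molecules were followed in mouse kidney before and after ischemia/reperfusion (I/R) injury. The members were all genes of the deposited table named as glutathione S-transferases (Gsta, Gstk, Gstm, Gsto, Gstp, Gstt, Gstz and Mgst), UDP-glycosyltransferases (Ugt1, Ugt2 and Ugt3) or cytosolic sulfotransferases (Sult), without pseudogenes. There were 66 of them among 29307 genes, 24 for glutathione, 21 for glucuronide and 21 for sulfate conjugation. Of these, 45 reached 0.005 in 3 or more libraries and were tested together with all other such genes, 16342 in total.

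The study had 6 groups of 3 libraries each. Control mice carried the floxed IKKβ gene without Cre (labelled WT), and IKKβΔTub mice (labelled Ikkb knockout) carried in addition Pax8-rtTA and LC1-Cre, which delete IKKβ, the kinase that activates NF-κB, along the renal tubule. By the study's methods both strains received doxycycline at 0.2 mg/mL for 2 weeks from the age of 6 weeks, with 1 week of wash out, and the left renal pedicle was clamped for 30 min. Kidneys were taken at baseline, at 2 days (2 d) and at 14 days (14 d) after I/R injury, so the groups were control and IKKβΔTub at each of these times. Each title names 2 mice per library, whereas the key in the deposited table lists 10 libraries as pools of 2 and 8 as single animals, which leaves the mice per library uncertain. Cells other than tubular cells keep IKKβ in the IKKβΔTub kidneys, and the libraries hold RNA of the whole tissue, in which fewer cells of a type and less RNA per cell cannot be told apart.

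Conjugation makes reactive or poorly soluble molecules water soluble and is abundant in the proximal tubule, the segment that secretes many drugs and metabolites into urine. Glutathione S-transferases couple electrophiles, among them products of lipid peroxidation, to the tripeptide glutathione. UDP-glycosyltransferases transfer glucuronic acid from UDP-glucuronate to bilirubin, steroids, phenols and drugs, and the sulfotransferases transfer sulfate from the donor PAPS to steroids, catecholamines, thyroid hormones and phenols.

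mRNA levels are given as the deposited values, that is, the reads of a gene divided by the 90th percentile of the reads per gene in its library. The summed level of the 66 members was 114, 110 and 76.1 in the 3 control libraries at baseline. It was 58.4, 48.2 and 47.6 in control at 2 days and 58.6, 45.1 and 38.8 at 14 days. In IKKβΔTub the sum was 117, 108 and 106 at baseline, 46.0, 45.3 and 41.6 at 2 days and 51.7, 83.7 and 61.6 at 14 days. Within each strain every library after I/R injury was below every baseline library, and replicate 2 of IKKβΔTub at 14 days, with 83.7, was nearest to them. Per kb of exon the levels at control baseline were highest for Sult1d1 (9.47 per kb), a sulfotransferase of catecholamines in mice, Ugt3a2 (6.11), Gsta2 (5.80), Gstm1 (5.76) and Ugt1a2 (3.03). The other members were below these, from Mgst3 at 2.23 per kb downwards.

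The members lie mostly in clusters of related neighbours (GRCm38, gene models of GENCODE M21 matched by Ensembl identifier). Gsta1 (chr9:78230656-78242684), Gsta2 (chr9:78331018-78355788) and Gsta4 (chr9:78182774-78209349) are neighbours on chromosome 9, with Gsta3 apart at chr1:21240589-21265661, and Gstp1 (chr19:4035407-4037985) lies beside Gstp2 (chr19:4040285-4046023). The genes of the Ugt1 locus have their own first exons and share the others, as for Ugt1a2 (chr1:88200601-88218997) and Ugt1a1 (chr1:88211959-88218997). Sult1d1 (chr5:87554645-87569027) and Sult1e1 (chr5:87575969-87591594) are adjacent on chromosome 5. How reads shared between such related genes were assigned is not given in the sources used here, so levels within the Gsta, Gstm, Gstp, Ugt1 and Ugt2 families are uncertain. The 21 members below the filter were Gstm3, Gstt4, Sult1c1, Sult2a1, Sult2a2, Sult2a3, Sult2a4, Sult2a5, Sult2a6, Sult2a7, Sult2a8, Sult3a1, Sult3a2, Sult6b2, Ugt1a5, Ugt1a8, Ugt2a1, Ugt2a2, Ugt2b1, Ugt2b35 and Ugt2b36. Among the tested members Mgst2 had 147 reads over all 18 libraries, Sult6b1 157, Sult4a1 251, Ugt1a6b 292, Ugt1a9 358 and Sult1e1 434. Mgst2 reached 0.005 in 5 libraries and Sult1e1 in 6, of which 3 were the control libraries at 14 days, so both passed the filter in part through the groups in which they were high.

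Promoters of 58 members, 40 of them tested, were found in a RefSeq table for GRCm38.p6, from 250 bases before to 50 bases after the transcription start. The antioxidant response element, to which the oxidative stress factor NRF2 binds, was searched as TGACNNNGC on both strands. It was present in 12.4% of all 32851 promoters and in those of 4 members, Gsta3, Gstm5, Gstm7 and Mgst1. Their sequences are shown because the log2 fold changes of these 4 genes differed in direction after I/R injury. The part of the element in this was not tested. The letters that match the element are in capitals, read on the reverse strand in Mgst1. The windows are chr1:21240335-21240634 on the plus strand for Gsta3, chr3:107895604-107895903 on the plus strand for Gstm5, chr3:107931565-107931864 on the minus strand for Gstm7 and chr6:138140277-138140576 on the plus strand for Mgst1.
Gsta3 promoter: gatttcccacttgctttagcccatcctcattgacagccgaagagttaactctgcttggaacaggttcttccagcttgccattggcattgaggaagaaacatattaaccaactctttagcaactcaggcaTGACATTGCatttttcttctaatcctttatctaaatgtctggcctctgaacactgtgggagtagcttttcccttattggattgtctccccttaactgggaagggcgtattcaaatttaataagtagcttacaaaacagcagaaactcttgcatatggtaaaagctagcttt
Gstm5 promoter: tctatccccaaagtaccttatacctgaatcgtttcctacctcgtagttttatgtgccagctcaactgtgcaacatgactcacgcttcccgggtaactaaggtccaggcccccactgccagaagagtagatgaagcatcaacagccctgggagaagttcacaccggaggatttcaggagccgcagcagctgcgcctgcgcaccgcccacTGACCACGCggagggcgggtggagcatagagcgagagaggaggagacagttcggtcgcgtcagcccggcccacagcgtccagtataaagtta
Gstm7 promoter: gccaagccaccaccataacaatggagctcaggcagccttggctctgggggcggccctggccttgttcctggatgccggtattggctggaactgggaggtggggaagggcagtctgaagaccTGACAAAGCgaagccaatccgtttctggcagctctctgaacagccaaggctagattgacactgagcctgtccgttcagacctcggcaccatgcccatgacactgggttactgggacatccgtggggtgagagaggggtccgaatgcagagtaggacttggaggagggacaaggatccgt
Mgst1 promoter: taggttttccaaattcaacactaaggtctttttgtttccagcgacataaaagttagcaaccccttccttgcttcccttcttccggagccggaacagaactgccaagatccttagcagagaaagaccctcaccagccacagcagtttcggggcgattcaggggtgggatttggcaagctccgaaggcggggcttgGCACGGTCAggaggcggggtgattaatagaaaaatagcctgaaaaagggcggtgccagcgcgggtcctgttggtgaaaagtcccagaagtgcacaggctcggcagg

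The match began 121 bases before the start site in Gsta3, 42 in Gstm5, 129 in Gstm7 and 56 in Mgst1. A match describes these letters and does not show a binding site. The xenobiotic response element TNGCGTG, named for the dioxin receptor AHR, was present in 5.07% of all promoters and in those of Gsta2, Sult1d1 and Ugt1a5. The core of the hepatocyte factor HNF4 (CAAAGTCCA) was present in 0.475% of all promoters and in that of Sult1b1, and the HNF1 core in 0.0609% and in no member's window.

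Several properties of the libraries bear on the values below. The libraries held 12306138 to 66317182 reads, and the baseline libraries (26285452 reads or more) were deeper than all others. The key in the deposited table lists the baseline libraries as new samples, of other animal names than the later ones, so these differences cannot be told apart from I/R injury. Ikbkb, the targeted gene, had a level of 0.736 to 0.861 in control and 0.376 to 0.551 in IKKβΔTub at baseline, and of 1.11 to 1.21 and 0.669 to 0.844 at 14 days. The levels at 2 days were 0.829, 0.855 and 1.29 under the control label and 0.856, 0.846 and 0.986 under the IKKβΔTub label. Vmn1r32 had no reads in control libraries at baseline and 14 days and 0.0417 to 0.0846 in IKKβΔTub libraries of these times. It had a level of 0.0156 and 0.0234 in replicates 1 and 2 labelled control at 2 days, so the genotype of these libraries is in doubt. Y-linked genes, which mark male tissue, were expressed in 8 libraries (summed level 0.544 to 2.55) and at most at 0.00236 in the other 10. The libraries without Y-linked expression numbered 3, 2 and 1 in control and 1, 0 and 3 in IKKβΔTub at baseline, 2 and 14 days. Replicate 2 of IKKβΔTub at 14 days had a proximal tubule marker sum of 242 and a macrophage sum of 1.69, whereas the other libraries of its group had 104 and 135 for the first and 8.74 and 7.09 for the second.

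In control mice, 2 days after the injury, the abundant Gsta2, Gstm1 and Ugt3a2 were among the glutathione S-transferases and glycosyltransferases that fell, whereas the sulfotransferases called were all higher. Of the 45 members tested, 8 rose (25.3% of all genes tested rose) and 16 fell (10.9% of all genes fell), and the median log2 fold change was -0.46, against 0.16 over all genes. Rescaling by median ratios moved the median of all genes to -0.01 and the share of rises among called genes from 69.8% to 53.9%, with 6 members then higher and 18 lower. For glutathione conjugation 3 members rose and 11 fell of 22, for glucuronidation 1 rose and 5 fell of 14, and for sulfation 4 rose and none fell of 9.

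Gsta2, an alpha class transferase and the most abundant of the Gsta family, had a level of 6.20, 7.90 and 6.37 in control at baseline and 1.87, 2.23 and 1.71 at 2 days. The groups did not overlap (log2 fold change -1.81, SE 0.28, adjusted p = 0.000147). Its neighbour Gsta1 went the opposite way, from 0.0178, 0.0397 and 0.0461 at baseline to 0.188, 0.210 and 0.0660 at 2 days. All 3 libraries at 2 days were above those at baseline (log2 fold change 1.94, SE 0.37, adjusted p = 0.000972). Without the libraries of doubtful genotype the adjusted p was 0.136. Gstk1, the mitochondrial and peroxisomal kappa class transferase, fell by 1.49 on the log2 scale, from 1.22, 1.10 and 1.04 to 0.430, 0.380 and 0.375. Of the mu class, which detoxifies many electrophiles, Gstm7 fell by 1.51 and Gstm1, its most abundant member, fell by 1.21, from 7.95 to 8.90 at baseline to 3.56 to 3.80. Gstm5 rose, from 1.52 to 1.81 at baseline to 2.34 to 3.07 at 2 days (log2 fold change 0.67, adjusted p = 0.0336), a call that was lost after rescaling by median ratios (adjusted p = 0.116) and with edgeR and DESeq2. Gsta3, which like Gstm5, Gstm7 and Mgst1 has a match to the antioxidant response element, fell (log2 fold change -1.12). Mgst1, a membrane-bound transferase, had a log2 fold change of -0.79 that did not pass the test. The part of the element in these levels was not tested. Mgst2, which can make leukotriene C4, rose (0.99), and Gstz1, which isomerizes maleylacetoacetate in tyrosine breakdown, fell by 1.26, from 3.83 to 5.03 at baseline to 1.54 to 2.52. The call of Mgst2 was lost in 9 of 16 alternative settings. Among them were rescaling by median ratios, the replicate block and control replicate 2 of 2 days left out (adjusted p = 0.145).

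Among the UDP-glycosyltransferases, both Ugt3 genes fell, Ugt3a1 by 2.68 and Ugt3a2 by 2.12 on the log2 scale. In humans these enzymes use other UDP-sugars than UDP-glucuronate, and the counts given for glucuronidation include them. Ugt3a2 had a level of 21.7, 20.7 and 14.5 at baseline and 9.32, 3.06 and 2.77 at 2 days, without overlap (SE 0.46, adjusted p = 0.00219). Of the Ugt1 locus, Ugt1a6a, a phenol-conjugating enzyme, fell by 2.34, Ugt1a1, the bilirubin-conjugating enzyme, by 2.20 and Ugt1a10 by 2.01. The calls of Ugt1a1 (adjusted p = 0.125) and Ugt1a10 were lost without control replicate 1 of 2 days, and both also without control replicate 2 of baseline. That of Ugt3a1 was lost without control replicate 2 of 2 days. Without the libraries of doubtful genotype, which leaves replicate 3 alone at 2 days, Ugt3a1, Ugt1a6a, Ugt1a1, Ugt1a10 and Ugt2b37 lost their calls. Ugt1a2, the most abundant gene of this locus, had 0.0216, 0.616 and 1.85 at 2 days against 5.06 to 8.30 at baseline, and its log2 fold change of -4.39 did not pass the test. Ugt2b37 rose, from 0.0134, 0.0145 and 0.0470 to 1.71, 0.451 and 0.607 (log2 fold change 4.88, SE 1.36, adjusted p = 0.0113). Its highest level was in replicate 1, the only control library of 2 days with Y-linked expression, and the values given further below show that Ugt2b37 was higher in libraries with Y-linked expression. The 4 sulfotransferases that rose were Sult4a1 (log2 fold change 1.49), a brain-enriched enzyme, Sult5a1 (1.39), Sult2b1 (1.30), which sulfates cholesterol and other steroids, and Sult6b1 (0.98). Without the libraries of doubtful genotype the calls of Sult4a1, Sult5a1 and Sult6b1 were lost (adjusted p = 0.181, 0.207 and 0.0720), and that of Sult5a1 also without control replicate 2 or 3 of baseline or replicate 2 of 2 days (0.056 to 0.087). Sult2b1 had 0.0137, 0.0141 and 0.0183 at baseline and 0.0424, 0.0386 and 0.0548 at 2 days, without overlap (SE 0.26, adjusted p = 0.00151). Sult1d1, the member with the highest level, had 36.1, 26.9 and 6.81 at baseline and 12.6, 13.3 and 15.1 at 2 days, so the groups overlapped (log2 fold change -0.46). Proximal tubule markers fell for 5 of 10 genes, from a summed level of 317 to 422 to one of 116 to 260, and their part in the members' levels was not tested.

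**Figure D1:**
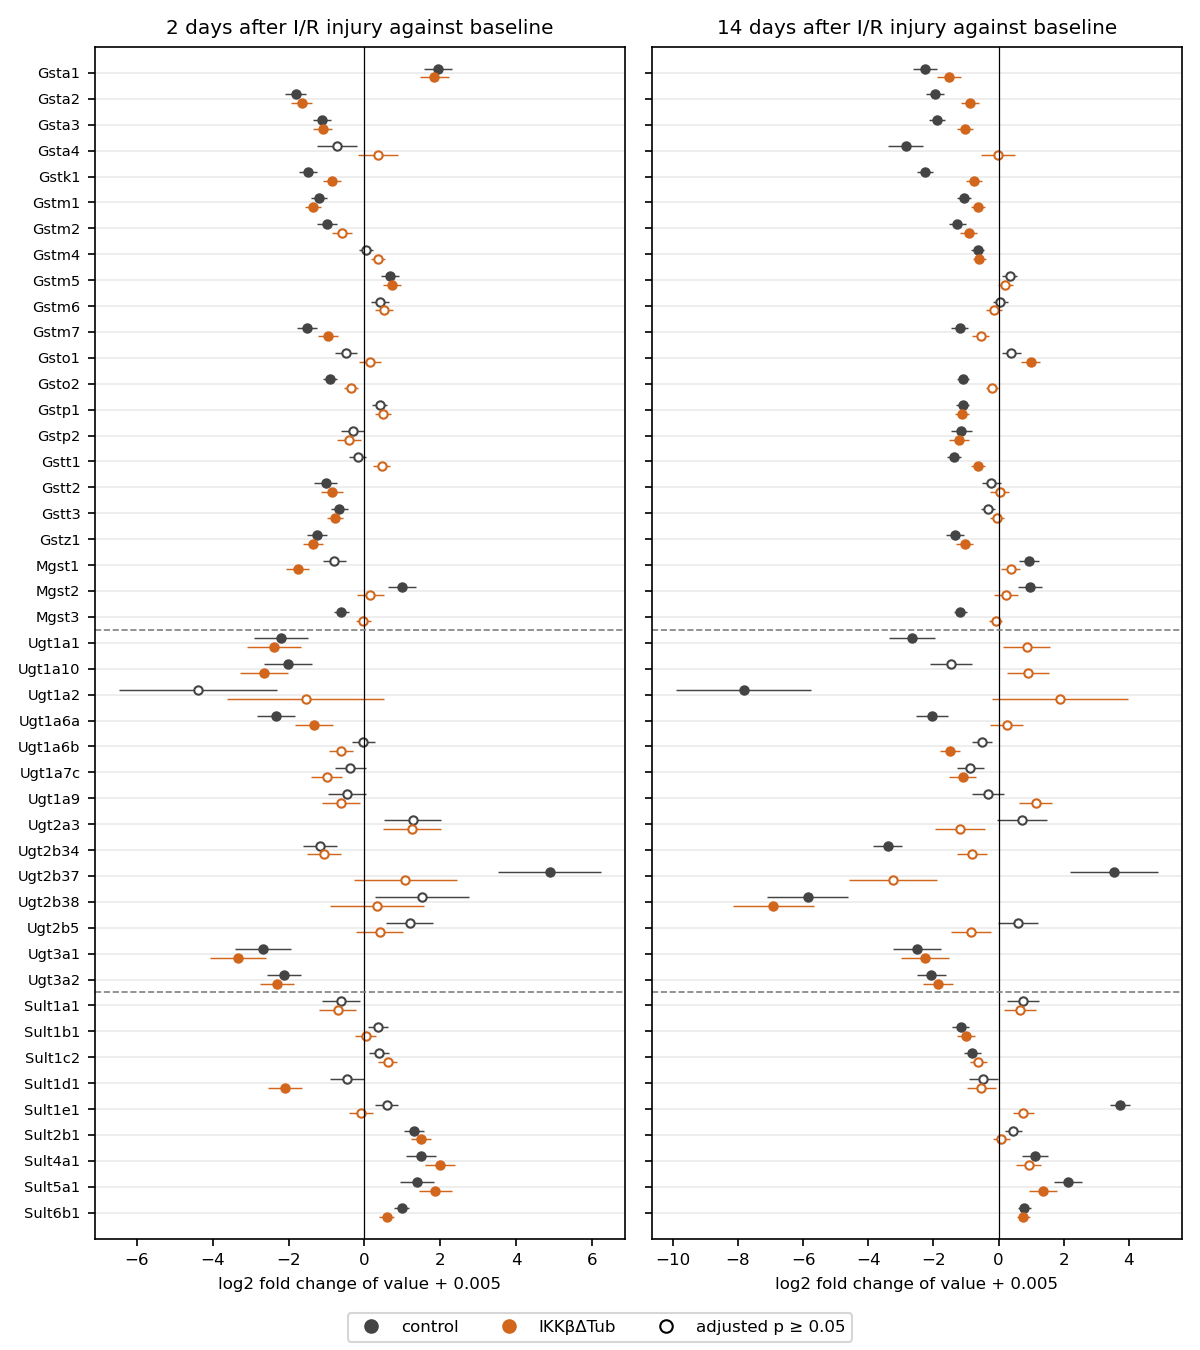
log2 fold change of each of the 45 tested members (rows, split by dashed lines into glutathione, glucuronide and sulfate conjugation) against baseline at 2 days (left) and 14 days (right), in control (grey) and IKKβΔTub (orange), with bars for 1 SE and open points for adjusted p of at least 0.05 from limma. In control 16 members fell at 2 days and 24 at 14 days, and the 4 Gsta genes are all left of 0 at 14 days.

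By 14 days more members of control kidneys were below baseline, with the 4 alpha class transferases among them, and the estrogen sulfotransferase gene Sult1e1 was raised. Of the 45 tested members 7 rose (32.5% of all genes) and 24 fell (16.9%), with a median log2 fold change of -1.07 against 0.23 over all genes. For glutathione conjugation 2 rose and 15 fell of 22, for glucuronidation 1 rose and 7 fell of 14, and for sulfation 4 rose and 2 fell of 9. The families differed in their medians, which were -2.11 for Gsta (4 of 4 fell), -2.29 for Ugt3 (2 of 2 fell), -1.12 for Gstp (2 of 2 fell) and 0.94 for Mgst (2 rose and 1 fell of 3).

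Sult1e1, which sulfates and so inactivates estrogens, had a level of 0.00244, 0.00069 and 0.00029 in control at baseline and 0.0853, 0.0710 and 0.0717 at 14 days. The 3 libraries at 14 days lay close together and above all other libraries (log2 fold change 3.73, SE 0.31, adjusted p = 1.91e-06). The 5 hepatocyte markers were also above 0 in log2 fold change, 1 of them past the test, with a summed level of 1.99 to 13.7 against 0.602 to 0.638 at baseline. Alb, the albumin gene, was at 7.85, 0.00907 and 2.36 in the libraries of 14 days, in which Sult1e1 was at 0.0853, 0.0710 and 0.0717. Both were highest in replicate 1. The part of the hepatocyte markers in the level of Sult1e1 was not tested. Of the members below the filter, 4 were also highest in replicate 1, as was Alb. Ugt2b36 had 0.0649, 0 and 0.00304 in these libraries, Ugt2b1 0.0334, 0 and 0.000608, Ugt2b35 0.0213, 0.000534 and 0.00365, and Sult2a8 0.0111, 0 and 0.000608.

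Gsta1, which had risen at 2 days, was at 0.00186, 0.00534 and 0.00182 at 14 days, below all baseline libraries (log2 fold change -2.25, SE 0.37, adjusted p = 0.000196). Gsta4, which conjugates the lipid peroxidation product 4-hydroxynonenal, went from 1.28, 2.10 and 2.08 at baseline to 0.288, 0.122 and 0.398 (log2 fold change -2.85, SE 0.53, adjusted p = 0.000464). Both groups were again apart. Gstk1 had 0.307, 0.172 and 0.230 at 14 days and fell by 2.26 (SE 0.25, adjusted p = 9.77e-06). Gstp1, the pi class transferase, fell by 1.11 and Gstp2 by 1.14. Gstp2 was at 0.00278, 0.00267 and 0.00243, each less than any baseline library (0.0137, 0.0117 and 0.0101). In contrast, Mgst1 rose, from 2.77, 3.67 and 1.76 to 7.49, 4.69 and 3.61, where replicate 3 of 14 days lay below the highest baseline library (log2 fold change 0.94, SE 0.30, adjusted p = 0.0184). This call was lost in 6 of 17 alternative settings. They were rescaling by median ratios (adjusted p = 0.062), the Y-linked level as a covariate, edgeR and only the groups compared. The others were control replicate 3 of baseline (0.095) or replicate 1 of 14 days (0.097) left out. Mgst2 also rose (0.96), a call lost in 6 of 15 alternative settings, among them control replicate 1 of 14 days left out (adjusted p = 0.215). Gstt2, a theta class transferase, had a log2 fold change of -0.23 that did not pass the test.

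Ugt1a2, the most abundant gene of the Ugt1 locus at baseline, had a level of 5.06, 6.75 and 8.30 at baseline and 0.000928, 0.0016 and 0.619 at 14 days. It fell by 7.82 on the log2 scale (SE 2.08, adjusted p = 0.00596, and 0.058 in edgeR), and replicates 1 and 2 of 14 days, the lowest, were the libraries with Y-linked expression. Ugt2b38 had 0.446, 0.980 and 1.33 at baseline and 0.00186, 0.00267 and 0.0529 at 14 days (log2 fold change -5.86, SE 1.24, adjusted p = 0.00127), which is low in all 3 libraries. Ugt2b34 fell by 3.40 (SE 0.45, adjusted p = 3.33e-05), from 1.98, 2.06 and 1.99 to 0.219, 0.0923 and 0.313. Ugt1a1 fell by 2.66, Ugt3a1 by 2.51 and Ugt3a2 by 2.06. Ugt2b37 rose (3.54, adjusted p = 0.0411), with 1.08 and 0.739 in the libraries with Y-linked expression and 0.0310 in the other, and the call was lost in 9 of 17 alternative settings, among them the replicate block (adjusted p = 0.056), rescaling by median ratios (0.055), the Y-linked level as a covariate (0.351) and replicate 1 or 2 of either group left out (0.104 to 0.160). Among the sulfotransferases Sult5a1 rose (2.13), from 0.0206 to 0.0281 at baseline to 0.0955 to 0.173, as did Sult4a1 (1.13, lost in 6 of 16 settings) and Sult6b1 (0.79), while Sult1b1 and Sult1c2 fell (-1.17 and -0.81). The proximal tubule marker sum was 317 to 422 at baseline and 72.2 to 110 at 14 days, and 9 of its 10 genes fell, whereas the macrophage sum went from 1.20 to 1.55 to 14.3 to 20.1. The part of these changes in the members' levels was not tested.

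**Figure D2:**
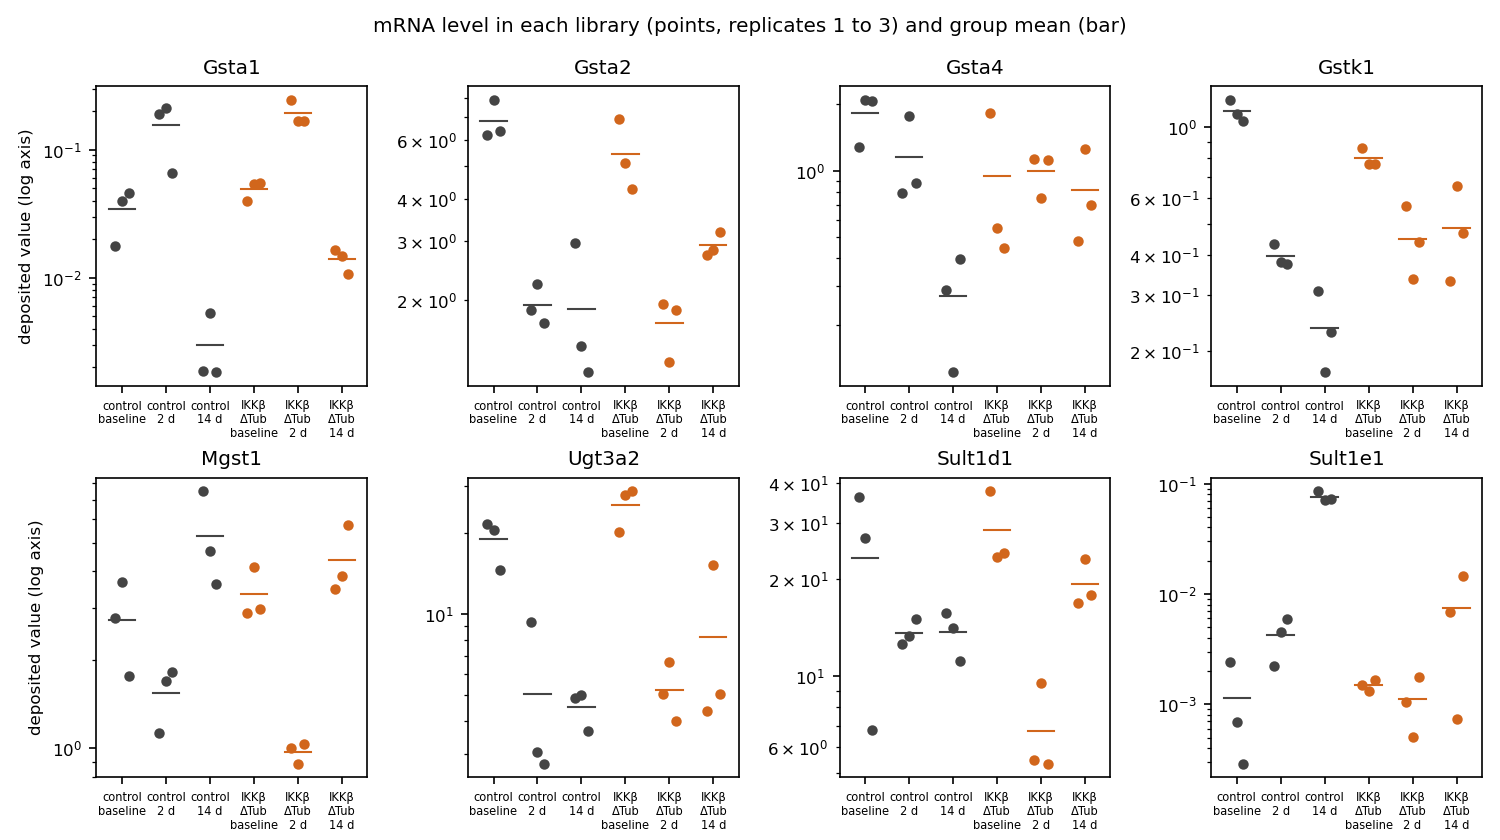
Deposited values of Gsta1, Gsta2, Gsta4, Gstk1, Mgst1, Ugt3a2, Sult1d1 and Sult1e1 in each library on log axes (points, replicates 1 to 3 from left to right in each group, control in grey and IKKβΔTub in orange) with the group mean (bar). Sult1e1 was at 0.0710 to 0.0853 in control at 14 days and at most at 0.0146 in every other library, and Gsta1 was highest at 2 days in both strains.

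From 2 to 14 days in control mice, 5 of the 45 members rose (16.6% of all genes) and 13 fell (17.7%), with a median log2 fold change of -0.35 against 0.02 over all genes. Those that rose were Sult1e1 (3.15), Mgst1 (1.73, SE 0.30, adjusted p = 0.000576), Sult1a1 (1.37), a phenol sulfotransferase, Gsto1 (0.89), an omega class enzyme that reduces dehydroascorbate, and Gstt2 (0.80). The calls of Sult1a1 and Gstt2 were lost in 9 and 10 of 18 alternative settings (for Sult1a1 with each of the 6 libraries left out) and that of Gsto1 in 4. Gsta1 fell by 4.19 (SE 0.37, adjusted p = 1.27e-06), and its level at 14 days was at most 0.00534 in each library against at least 0.0660 at 2 days. Ugt2b38 fell by 7.39, Ugt2b34 by 2.23, Gsta4 by 2.13, Sult1b1, which sulfates thyroid hormones, by 1.52, Gstp1 by 1.50, Gstt1 by 1.20 and Sult1c2 by 1.19. For Gstp1 the level was 1.95, 1.70 and 1.49 at 2 days and 0.796, 0.587 and 0.457 at 14 days, without overlap. Without both libraries of doubtful genotype, 7 members were called in this comparison and 8 in that of 2 days with baseline, where 1 library of 2 days then remained.

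In IKKβΔTub mice Gsta1 and 4 sulfotransferase genes rose at 2 days, and Ugt3a1, Ugt3a2, Gsta2, Gstm1, Mgst1 and Sult1d1 were among the members that fell. Of the 45 members 6 rose (35.2% of all genes) and 15 fell (14.5%), with a median log2 fold change of -0.41 against 0.25 over all genes. After rescaling by median ratios 4 rose and 20 fell. For glutathione conjugation 2 rose and 9 fell of 22, for glucuronidation none rose and 5 fell of 14, and for sulfation 4 rose and 1 fell of 9. Called in the same direction in both strains were 19 members, 79.2% of those called in control and 90.5% of those called in IKKβΔTub, and none was called in opposite directions. Over all genes these shares were 77.4% and 56.4%. Replicates 1 and 2 labelled control are of doubtful genotype, and without them 8 members were called in control, so how far the strains share these changes is uncertain. The 6 shared rises were Gsta1, Gstm5, Sult2b1, Sult4a1, Sult5a1 and Sult6b1. Mgst1 and Sult1d1 were called in IKKβΔTub and not in control, but their strain difference at 2 days did not pass the test.

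Gsta1 had a level of 0.0398, 0.0537 and 0.0551 in IKKβΔTub at baseline and 0.246, 0.166 and 0.167 at 2 days, again without overlap (log2 fold change 1.85, SE 0.37, adjusted p = 0.000878). Sult5a1 rose (1.86), as did Sult4a1 (2.00), Sult2b1 (1.49), Gstm5 (0.73) and Sult6b1 (0.59), though Gstm5 and Sult6b1 lost their calls in edgeR and DESeq2. Mgst1 was at 2.89, 4.15 and 2.98 at baseline and 0.998, 0.885 and 1.03 at 2 days, all below baseline (log2 fold change -1.76, SE 0.30, adjusted p = 0.000257). Sult1d1 had 37.7, 23.5 and 24.1 at baseline and 5.48, 9.48 and 5.33 at 2 days and so fell by 2.09 (SE 0.44, adjusted p = 0.00129). Ugt3a2 went from 20.1, 27.7 and 28.7 to 5.02, 6.65 and 3.98 (log2 fold change -2.30, SE 0.46, adjusted p = 0.000748), with no overlap either. Ugt3a1 fell by 3.33, Ugt1a10 by 2.64, Ugt1a1 by 2.39, Gsta2 by 1.66 and Gstm1 by 1.36 (adjusted p = 9.42e-05). The call of Ugt1a1 was lost without replicate 1 of baseline (adjusted p = 0.063 from limma), the only library of these groups without Y-linked expression. Gstm1 had 9.09, 9.74 and 8.51 at baseline and 3.96, 2.91 and 3.85 at 2 days. The proximal tubule marker sum was 351 to 387 at baseline and 174 to 239 at 2 days (4 of 10 fell), and 104 to 242 at 14 days (10 of 10 fell), and its part in the members' levels was not tested.

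At 14 days in IKKβΔTub, 3 of the 45 members rose (28.6% of all genes) and 17 fell (10.9%), with a median log2 fold change of -0.55 against 0.25 over all genes. For glutathione conjugation 1 rose and 11 fell of 22, for glucuronidation none rose and 5 fell of 14, and for sulfation 2 rose and 1 fell of 9. The 3 that rose were Sult5a1 (1.37), Gsto1 (0.99) and Sult6b1 (0.76), of which Sult5a1 lost its call in 6 of 17 alternative settings and Gsto1 in 4 of 17. Gsta1 was at 0.0163, 0.0146 and 0.0107, below its baseline in each library (log2 fold change -1.53, SE 0.37, adjusted p = 0.00539). Ugt2b38 fell by 6.91, with 0.809, 3.62 and 4.57 at baseline and 0, 0.000732 and 0.264 at 14 days. Ugt3a1 fell by 2.25, although replicate 2 of 14 days had 3.56, within the baseline range of 2.80 to 3.90, and the others 0.255 and 0.312. This call was lost in 9 of 17 settings, among them edgeR (adjusted p = 0.168), DESeq2 (0.180) and 5 of 6 libraries left out. Ugt3a2 showed the same split, with 15.2 in replicate 2 and 4.35 and 5.06 in the others (log2 fold change -1.86, SE 0.46, adjusted p = 0.00555). Ugt1a6b fell by 1.50, Gstp2 by 1.22, Gstp1 by 1.12 and Ugt1a7c by 1.11, the last with its call lost in 7 of 17 settings. Replicates 2 and 3 of baseline had Y-linked expression, and no library of 14 days did. With the Y-linked level as a covariate, Sult5a1, Gsto1, Ugt3a1, Ugt3a2, Gstp2 and Ugt1a7c lost their calls. Gsta1, Ugt2b38, Ugt1a6b and Gstp1 kept theirs. I/R injury and Y-linked expression therefore cannot be told apart in full in this comparison.

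In both strains 17 members were called at 14 days in the same direction (2 higher and 15 lower), 54.8% of the 31 called in control and 85% of the 20 called in IKKβΔTub, where the shares over all genes were 59.1% and 73.8%. Called in control and not in IKKβΔTub were 14 members, among them Gsta4, Gstm7, Mgst3, Ugt2b34 and Sult1e1. The strain difference at 14 days was 0.28 for Gstm7 (adjusted p = 0.720) and 0.64 for Mgst3 (adjusted p = 0.137), neither of which passed the test, and it is given further on for the others. Without replicate 2 of IKKβΔTub at 14 days, 23 members were called against baseline in that strain, and without replicate 1 of the same group 10 were called.

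From 2 to 14 days in IKKβΔTub 13 members rose (13.8% of all genes) and 13 fell (19.2%), with a median log2 fold change of 0.07 against -0.04 over all genes. Of 7 genes of the Ugt1 locus 4 rose, Ugt1a10 (3.54), Ugt1a1 (3.25), Ugt1a9 (1.75) and Ugt1a6a (1.57), and 1 fell, Ugt1a6b (-0.88), while Ugt1a2 (3.43) and Ugt1a7c (-0.11) did not pass the test. Ugt1a10 had 0.0239, 0.0230 and 0.0213 at 2 days and 0.942, 0.182 and 0.186 at 14 days. The 3 libraries of 2 days all had Y-linked expression and those of 14 days had none, and with the Y-linked level as a covariate 14 members were called in place of 26. Ugt1a10 (adjusted p = 0.0173) and Ugt1a1 (0.0459) kept their call with this covariate, and Ugt1a9 and Ugt1a6a lost it (0.253 and 0.389). Mgst1 rose (2.13, SE 0.30, adjusted p = 0.000126) to 3.49, 3.86 and 5.72, as did Sult1d1 (1.55) to 16.9, 23.1 and 17.9. Sult1a1 (1.37) and Gstt2 (0.89) rose as well, but Sult1a1 lost its call in 9 of 17 alternative settings, among them each of the 6 libraries left out, and Gstt2 in 4. Sult1d1 was lost with the covariate (adjusted p = 0.077) and without replicate 1 or 3 of 2 days (0.059 for each). Ugt2b38 fell by 7.23, Ugt2b37 by 4.32, Gsta1 by 3.38, Ugt2a3 by 2.45 (each of Ugt2b37 and Ugt2a3 lost in 5 of 17 settings), Gstp1 by 1.62, Sult2b1 by 1.40, Sult1c2 by 1.23 and Gstt1 by 1.10. From 2 to 14 days 13 members were called in the same direction in both strains, 72.2% of the 18 called in control and 50% of the 26 called in IKKβΔTub (62.9% and 65.2% over all genes), among them Mgst1, Gsta1, Gstp1 and Ugt2b38.

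Before injury, no member passed the test between IKKβΔTub and control. None was higher (0.0367% of all genes were) and none lower (0.0122%) at an adjusted p under 0.05 from limma. At an unadjusted p under 0.05 there were 8 members, against 15.2% of all genes in either direction. edgeR called 0 members and DESeq2 called 1, Ugt2b37 (log2 fold change 5.28, adjusted p = 0.00106), which had 0.0227, 1.14 and 1.41 in IKKβΔTub against 0.0134, 0.0145 and 0.0470 in control. The high libraries were replicates 2 and 3, those with Y-linked expression, while all control libraries at baseline had none. Without replicate 1 of IKKβΔTub at baseline, which had none either, 6 members were called, namely Ugt2b37, Ugt1a2, Gsta4, Ugt1a6a, Gsto2 and Gstp2, so strain and Y-linked expression cannot be told apart there. At 2 days no member and no gene of the table passed the test in either direction (0% of all genes higher and 0% lower), and 3 members had an unadjusted p under 0.05 (6.52% of all genes). edgeR and DESeq2 each called 0 members at 2 days. The genotype of replicates 1 and 2 labelled control limits this comparison.

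At 14 days 1 member differed between the strains, Sult1e1, which was lower in IKKβΔTub. None of the 45 was higher (0.0673% of all genes) and 1 was lower (0.416%). Sult1e1 had 0.0853, 0.0710 and 0.0717 in control and 0.00686, 0.000732 and 0.0146 in IKKβΔTub, so every IKKβΔTub library was below every control library. The log2 fold change was -2.87 (SE 0.31), with an adjusted p of 0.000454 in limma and of 7.21e-05 in DESeq2. With edgeR the adjusted p was 0.0697, and with limma fitted to these groups alone it was 0.287, neither of which passed the threshold. In IKKβΔTub at 14 days the Alb level was 0.0163, 0.102 and 0.0320 and the hepatocyte marker sum 0.580 to 0.904, with 5 of 5 markers below 0 in the strain difference and none past the test. The macrophage marker sum was 1.69 to 8.74 there and 14.3 to 20.1 in control, again with 5 of 5 below 0 and none past the test. The part of either in the difference was not tested.

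Other members leaned to higher levels in IKKβΔTub at 14 days without passing the test. The median log2 difference was 0.29 over the 45 members and -0.05 over all genes, and 30 of 45 members were above 0, against 6921 of the 16342 genes. At an unadjusted p under 0.05 in either direction there were 16 of the 45 members, Sult1e1 included, against 14% of all genes. The median was 0.35 for glutathione, 0.66 for glucuronide and -0.18 for sulfate conjugation. In the Gsta family 4 of 4 members were above 0 (median 1.03). Gsta1 had 0.0163, 0.0146 and 0.0107 in IKKβΔTub and at most 0.00534 in control (log2 difference 1.25, SE 0.37, adjusted p = 0.122). Gsta4 had 0.479, 1.26 and 0.702 in IKKβΔTub and 0.288, 0.122 and 0.398 in control (1.62, SE 0.53, adjusted p = 0.160). Gstk1 had 0.330, 0.655 and 0.468 against 0.307, 0.172 and 0.230 (1.00, SE 0.25, adjusted p = 0.0736). None of these 3 genes overlapped between the strains, as was the case for 10 of the 45 members and for 13.5% of all genes. Gstp2, with 0.00515, 0.00293 and 0.00799 in IKKβΔTub, had a difference of 0.41 (SE 0.31, adjusted p = 0.624). Gsta3 (0.81, adjusted p = 0.120), Ugt2b34 (1.82, adjusted p = 0.0736) and Ugt1a10 (2.45, adjusted p = 0.0876) were also apart in every library.

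DESeq2, run on the recovered reads, called 11 members at 14 days, 8 higher (1.41% of all genes) and 3 lower (1.65%). The 8 higher in IKKβΔTub were Gsta1 (log2 fold change 2.19, adjusted p = 0.0145), Gsta3, Gsta4, Gstk1 (1.12, adjusted p = 0.00486), Mgst3, Ugt1a6a, Ugt1a10 and Ugt2b34, and the 3 lower were Sult1e1, Ugt2b5 and Ugt2b37. Ugt2b5 was at 0.156, 0.0171 and 0.0109 in control, high in the library with the most Alb, and at 0.00643, 0.00805 and 0.0186 in IKKβΔTub. Ugt2b34 had 0.585, 0.922 and 0.555 in IKKβΔTub and 0.219, 0.0923 and 0.313 in control. Proximal tubule markers moved with these members, since their sum was 104 to 242 in IKKβΔTub and 72.2 to 110 in control at 14 days, and 9 of 10 were above 0 with none passing the test. Their part in the difference was not tested. Replicates 1 and 2 of control at 14 days had Y-linked expression and no IKKβΔTub library of 14 days did. Strain and Y-linked expression therefore cannot be told apart in full in the comparisons of 14 days. Several glucuronosyltransferases varied with Y-linked expression, as given further below. Without replicate 2 of IKKβΔTub, the median over the members was 0.23, and it ranged from 0.20 to 0.50 when each library was left out in turn.

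The change of the strain difference from baseline to 14 days was tested directly as an interaction. No member had a higher one (0.0306% of all genes) and 1 had a lower one (0.0857%), again Sult1e1. Its strain difference at 14 days was 2.97 lower on the log2 scale than that at baseline (SE 0.44, adjusted p = 0.0153), where its levels of 0.00131 to 0.00166 in IKKβΔTub and 0.00029 to 0.00244 in control overlapped. This call was lost in 8 of 23 alternative settings, with an adjusted p of at most 0.173. At an unadjusted p under 0.05 there were 15 members, against 17.1% of all genes. Gsta4 had an interaction of 2.83 (SE 0.75, adjusted p = 0.104) and Gstk1 one of 1.49 (SE 0.35, adjusted p = 0.0870), with strain differences at baseline of -1.21 and -0.48. None of these values passed the test in limma over all libraries. The interaction was called in DESeq2 for Gsta4 (2.58, adjusted p = 0.0120) and Gstk1 (1.51, adjusted p = 0.00423), and in limma without replicate 1 of IKKβΔTub at baseline for both genes (adjusted p = 0.00967 and 0.0281). That replicate was the only IKKβΔTub library at baseline without Y-linked expression, and no control library at baseline had it. Strain and Y-linked expression therefore cannot be told apart at baseline in that setting. DESeq2 called 6 members in all, Sult1e1 among them, and edgeR called 1, Ugt2b37.

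**Figure D3:**
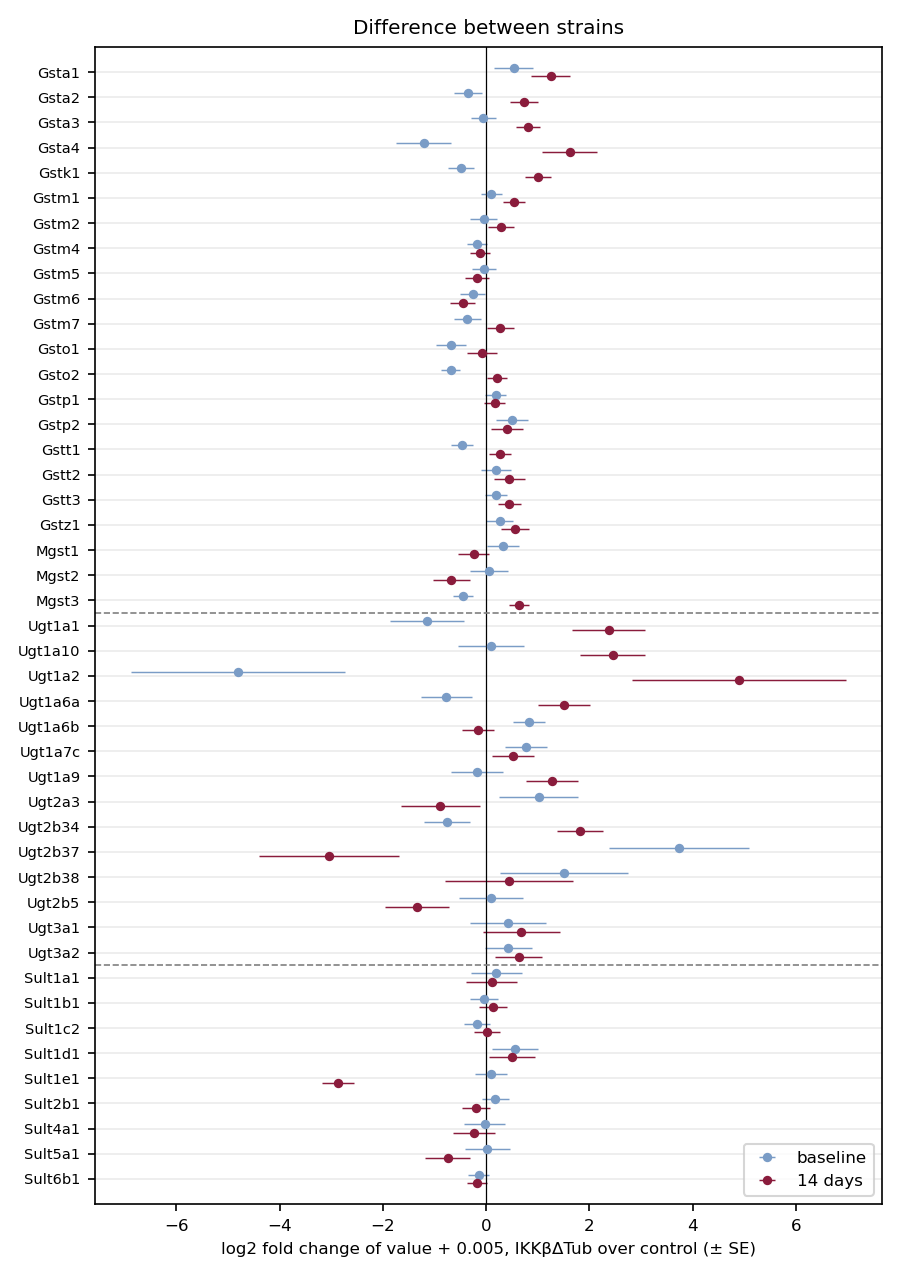
log2 fold change of IKKβΔTub over control for the 45 tested members at baseline (blue) and at 14 days (dark red), with bars for 1 SE. At 14 days Sult1e1 (-2.87) is the member that passed the test, and 30 of 45 members are right of 0.

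Within groups, several glucuronosyltransferases varied with Y-linked expression. The level of the Y-linked genes was tested as a covariate beside the group means. Of the 45 members 1 was higher with it, Ugt2b37 (0.477% of all genes were higher), and 2 were lower, Ugt1a2 and Ugt1a1 (0.239% of all genes). The calls of Ugt1a1 and Ugt2b37 were lost without replicate 1 of IKKβΔTub at baseline (adjusted p = 0.066 and 0.062). Per doubling of the Y-linked level the log2 change was 0.47 for Ugt2b37 (SE 0.064, adjusted p = 0.00176), -0.76 for Ugt1a2 (SE 0.071, adjusted p = 4.84e-05) and -0.24 for Ugt1a1 (SE 0.038, adjusted p = 0.00656). The summed Y-linked level was either at least 0.544 or at most 0.00236. These slopes therefore mainly compare libraries with and without Y-linked expression and do not measure a graded response. At an unadjusted p under 0.05 there were 11 of 14 UDP-glycosyltransferases, 5 of 22 glutathione S-transferases and 0 of 9 sulfotransferases, against 14.7% of all genes. The 11 include all 7 tested genes of the Ugt1 locus, which share exons and so are not separate observations.

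Ugt1a2 ranged from 0.000928 to 0.377 (median 0.0318) in the 8 libraries with Y-linked expression and from 0.379 to 8.30 (median 2.34) in the 10 without it, so the sets did not overlap. Ugt1a1 ranged from 0.00512 to 0.0354 (median 0.0072) with and from 0.0393 to 0.238 (median 0.103) without, also without overlap. Ugt2b37 was higher with Y-linked expression, from 0.298 to 1.71 (median 1.11), than without, from 0.0134 to 0.607 (median 0.0268). These sets overlapped through replicates 2 and 3 of control at 2 days, which lacked Y-linked expression and had 0.451 and 0.607. Ugt2b38 did not separate in this way, with 0.00186 to 5.89 in libraries with and 0 to 2.17 in libraries without. Replicate 3 of IKKβΔTub at 2 days held both Y-linked reads (0.544) and Xist, the RNA of the inactive X chromosome (1.53), and had the highest Ugt1a2 level (0.377) among the libraries with Y-linked expression. The libraries with Y-linked expression are spread unevenly over strains and times. With their level as a covariate, Ugt1a2 (adjusted p = 0.00341) and Ugt1a1 (0.0248) kept their fall at 14 days in control, and Ugt2b37 kept its rise at 2 days (0.000951) and lost that at 14 days (0.351). At 2 days Ugt1a2 was also lower in the control libraries without Y-linked expression (0.616 and 1.85) than in the baseline libraries of control (5.06 to 8.30), which had none.

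**Figure D4:**
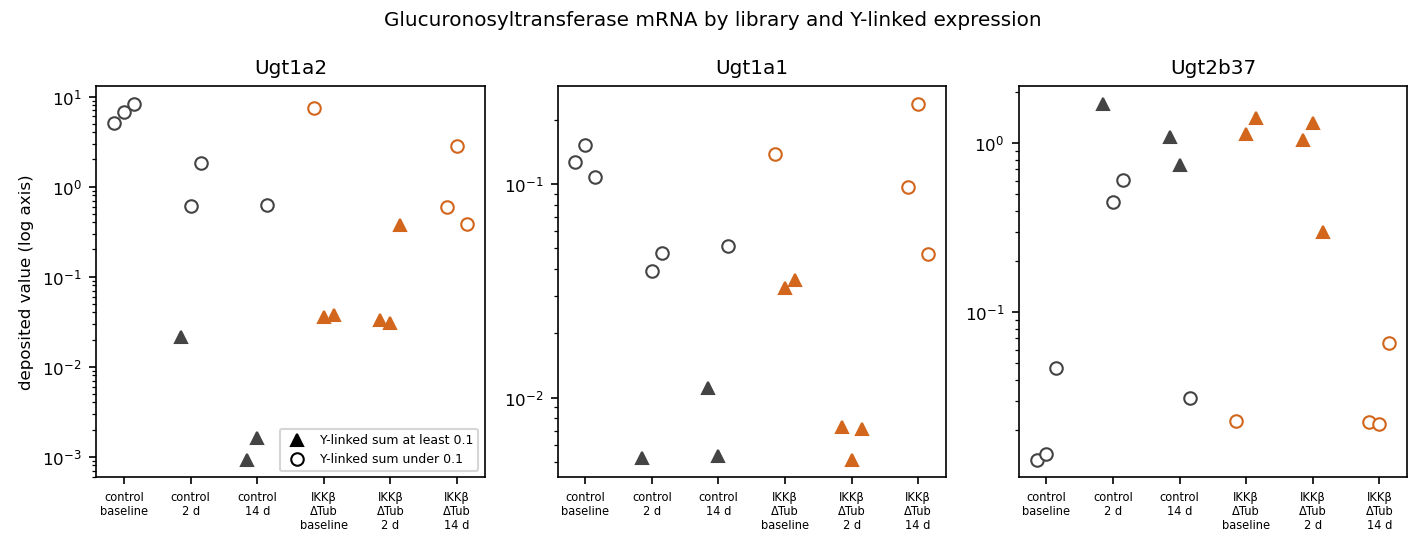
Deposited values of Ugt1a2, Ugt1a1 and Ugt2b37 by group and library on log axes, with triangles for libraries with a summed Y-linked level of at least 0.1 and open circles for the others. For Ugt1a2 every triangle (at most 0.377) is below every circle (at least 0.379), and for Ugt2b37 the triangles are at 0.298 and above.

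Genes that supply and use the conjugates were described from lists of pathway genes. Of all genes tested, 25.3% rose and 10.9% fell at 2 days in control, and 32.5% and 16.9% at 14 days. In IKKβΔTub 35.2% rose and 14.5% fell at 2 days, and 28.6% and 10.9% at 14 days. The counts in this paragraph and the next stand beside these shares, and no list was tested as a set. Of 5 genes of glutathione synthesis and recycling, control had 1 higher and 1 lower at 2 days and 1 higher and 3 lower at 14 days, and IKKβΔTub had 1 higher and 3 lower at 2 days and 4 lower at 14 days. Gclm, a subunit of the enzyme that starts glutathione synthesis, fell in all 4 comparisons (-0.70 and -1.77 in control, -0.94 and -1.34 in IKKβΔTub). Its catalytic partner Gclc fell in IKKβΔTub (-2.53 and -1.22) and did not pass the test in control (-0.81 and -0.79). Slc7a11, the cystine transporter, rose in control (2.60 and 2.43) and at 2 days in IKKβΔTub (2.40), with a value of 0.40 there at 14 days. Of 10 genes that process glutathione conjugates to mercapturates, 5 fell at 2 days and 7 at 14 days in control, with 1 higher at each time, and 2 and 7 fell in IKKβΔTub, with none higher. Ggt1, which removes the glutamate, had log2 fold changes of -1.10 and -2.14 in control and -0.87 and -1.61 in IKKβΔTub, and that at 2 days in IKKβΔTub did not pass the test.

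Of 4 genes of UDP-glucuronate use, 1 fell at 2 days and 3 at 14 days in control, with 1 higher at each time, and 3 fell at each time in IKKβΔTub, with 1 higher at 2 days. Ugdh, which makes UDP-glucuronate, had -0.36 (not passing the test) and -0.96 in control and -0.95 and -0.97 in IKKβΔTub. Gusb, the lysosomal enzyme that removes glucuronic acid, rose in control (1.58 and 1.14) and at 2 days in IKKβΔTub (1.42), with -0.01 there at 14 days. Of 8 genes of PAPS supply 2 were higher and 2 lower at 2 days in each strain, and at 14 days 1 was higher in each strain, with 5 lower in control and 4 in IKKβΔTub. Papss2, a PAPS synthase, fell in control (-1.20 and -1.10) and at 2 days in IKKβΔTub (-1.33). Of 9 efflux pumps 5 fell at 2 days and 4 at 14 days in control and 3 and 2 in IKKβΔTub, with 1 higher at 14 days in each strain, and Abcc2, which exports conjugates at the brush border, fell in all 4 comparisons (-0.73, -1.14, -0.95 and -0.75). Of 13 transcription factors of these pathways, 5 were lower and 2 higher at 2 days in control, and 4 lower and 3 higher at 14 days. In IKKβΔTub 6 were lower and 1 higher at 2 days, and 3 were lower and 3 higher at 14 days. Hnf4a fell in all 4 (-0.80, -0.79, -0.92 and -0.57). Nfe2l2, which encodes NRF2, had 0.04 and 0.65 in control and -0.57 and 0.19 in IKKβΔTub, of which 0.65 and -0.57 passed the test. Bcl6, a repressor linked to sex differences in mouse liver, was the only factor on the list that differed between the strains at baseline (log2 fold change 1.91, SE 0.31, adjusted p = 0.0374). Its interaction was -2.52 (adjusted p = 0.0431), with levels of 0.480, 0.690 and 0.359 in IKKβΔTub and 0.121, 0.117 and 0.144 in control at baseline and 0.379, 0.191 and 0.362 against 0.396, 0.431 and 0.556 at 14 days.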

How the data were processed

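Kidney mRNA was measured in 18 libraries of stranded, poly(A)-selected RNA. Per the submitters' processing notes the authors used FastQC 0.11, Trim Galore 0.4, STAR 2.5.2b, featureCounts 1.5.2, StringTie 1.3.3b, MultiQC 1.4, R 3.6.3 and DESeq2 1.26.0, and the paper names GRCm38. The signal values that the authors deposited are reads per gene divided by the 90th percentile of the library. Every value was a whole number of reads within 0.001 reads, so reads were recovered (100%). Of the gene starts, 2.72% match GENCODE M21 on GRCm38, and positions are therefore those of GENCODE M21 by Ensembl identifier.

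The values + 0.005 were taken to log2 and fitted with limma 3.58.1 (R 4.3.3) to 6 group means over 18 libraries, for genes of at least 0.005 in at least 3 libraries. Tests were two-sided, with Benjamini-Hochberg adjustment over 16342 genes and a threshold of 0.05. A fold change on this scale understates the change of low genes. edgeR 4.0.16 and DESeq2 1.42.0 on the recovered reads, other pseudocounts, filters and scalings, a replicate block, the Y-linked level as covariate and leaving out libraries were alternatives. Replicates are separate libraries, which may or may not be separate mice throughout, so p-values measure the spread between libraries.

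The members and lists were chosen with earlier results of these data known. Named in each comparison were the 8 called members with the largest rise and the 8 with the largest fall, the tested member of each family with the highest value at control baseline, Gsta1, Gsta4, Gstk1 and Gstp2, which the study names, and members called for the Y-linked level. Other members named, among them those below the filter and those called by 1 tool only, were chosen after their values were seen. On simulated data for control at 14 days against baseline (16088 genes), limma recovered 57% of 100 genes changed 2-fold and 99% of 100 changed 4-fold, with 5.45% of its calls false. The simulation gave all genes the same dispersion, held no differences in Y-linked expression and changed only genes well covered in the smallest library. These rates therefore do not carry over to members with few reads or to groups of mixed Y-linked expression.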

Additional observations from a re-analysis of the deposited data

Results flagged for a closer look

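The effect of I/R injury at 14 days on Sult1e1 differed between the strains by the test of the difference itself. The strain difference at 14 days minus that at baseline was -2.97 on the log2 scale (SE 0.44, adjusted p = 0.0153 from limma). Sult1e1 rose at 14 days in control (log2 fold change 3.73) and had a log2 fold change of 0.76 in IKKβΔTub that did not pass the test. No other member was called for this difference by limma. The call was lost in 8 of 23 alternative settings. It was lost with the Y-linked level as a covariate, a pseudocount of 0.001, edgeR and only the groups compared. Leaving out control replicate 2 or 3 of baseline, control replicate 1 of 14 days or IKKβΔTub replicate 2 of baseline also lost it.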

How the results depend on the processing

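Counts of called members changed by less than 1.5 times, or kept their count of 0, in every comparison not named here. At 2 days against baseline in control, 24 members became 16 to 25 with each library left out and 8 (1 higher, 7 lower) without both libraries of doubtful genotype, an alternative chosen after seeing the data. From 2 to 14 days in control, 18 became 11 (without control replicate 2 of 14 days) to 17 and 7 in the same order. At 14 days against baseline in IKKβΔTub, 20 became 10 with the Y-linked covariate, 8 with only the groups compared and 10 to 23 with each library left out (10 without replicate 1 of 14 days, 13 without replicate 3 of baseline). From 2 to 14 days in IKKβΔTub, 26 became 14 with the covariate and 14 to 21 with each library left out, the lowest without replicate 2 of 2 days. At baseline between strains, 0 became 1 with DESeq2 and 0 to 6 with each library left out, the 6 without IKKβΔTub replicate 1. At 14 days between strains, 1 became 0 with edgeR, 11 with DESeq2, 0 with only the groups compared and 1 to 2 with each library left out. The interaction went from 1 to 0 with a pseudocount of 0.001, with the Y-linked covariate and with only the groups compared, to 6 with DESeq2 and to 0 to 8 with each library left out. For the Y-linked level, 3 became 10 with DESeq2 and 1 to 5 with each library left out. The causes were not tested. Of 90 named values, 46 kept their call in every setting and 44 lost it in at least 1, and none of 1579 recomputed values reversed. Rescaling by median ratios took the median of all genes from 0.16 to -0.01 and from 0.23 to 0.04 in control (2 and 14 days) and from 0.25 to -0.03 and from 0.25 to 0.02 in IKKβΔTub, and the share of called genes that rose from 69.8% to 53.9%, 65.8% to 51.4%, 70.9% to 49.4% and 72.4% to 51.8%. The members called then were 6 higher and 18 lower, 5 and 25, 4 and 20, and 3 and 19. Deviations from the group means had a median correlation of -0.014 between same-numbered libraries of different groups (9 of 45 over 0.1). Between differently numbered libraries it was 0.051 (32 of 90 over 0.1). The titles repeat the same mouse numbers at each time. With so few libraries per group these correlations cannot exclude a pairing, and the main tests used none. With a replicate block the counts in the order of the report were 23, 30, 16, 21, 20, 23, 0, 0, 1, 1 and 3. Members with few reads (147 over all libraries for Mgst2) had values near those of single reads at the depth after injury.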

Other observations

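Ugt1a9 and Ugt1a10 were highest in replicate 1 of IKKβΔTub at 14 days. Ugt1a10 was at 0.942 there and at most at 0.277 in every other library, and Ugt1a9 was at 0.0545 and at most at 0.0161 elsewhere. At baseline Sult1a1 and Sult1d1 were both lowest in replicate 3 of control, where Sult1a1 had 0.192 against 1.26 and 0.843 in the other replicates and Sult1d1 had 6.81 against 36.1 and 26.9. These genes were chosen after their values were seen, and no test was run on these patterns.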
